A study of Mus musculus with 6 samples.

Results

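The genes described here are 40 components of the bone morphogenetic protein (BMP) pathway, chosen by name and matched by symbol to 55487 gene IDs of the count table: 11 ligands, 7 receptors, 12 extracellular antagonists and co-receptors, 6 Smads and 4 Id genes. RNA came from the rib cage, dissected free of connective tissue, of mouse embryos at 16.5 dpc (days post coitum), 3 controls labelled wild type (embryos E420, E434 and E435) and 3 mutants labelled Col2-cre;Foxc1-/-;Foxc2-/- (embryos E423, E433 and E440). Foxc1 and Foxc2 encode forkhead transcription factors. In the mutants their floxed alleles were deleted by Cre under Col2 control, which acts in cells of the cartilage lineage, so the other cells of the rib cage can still carry both genes. Mutants came from males with Col2-cre and 1 deleted copy of each gene crossed to females homozygous for both floxed alleles, and the study's methods state that littermates were compared, but not which of the sequenced embryos shared a litter, so litter is in none of the fits. The comparison asked how the RNA of the BMP pathway differed between mutant and control ribs. In RNA from bulk tissue, fewer cells of a type and less RNA per cell cannot be told apart.

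BMP ligands are secreted dimers that bind a complex of type I and type II receptor kinases. The activated type I receptor phosphorylates Smad1, Smad5 and Smad9, which join Smad4, enter the nucleus and switch on genes such as Id1, Id2 and Id3. Secreted antagonists such as Nog bind the ligand outside the cell, and Smad6, Smad7 and the pseudoreceptor Bambi dampen the signal and are themselves induced by it in many cells. In the growing skeleton the pathway drives mesenchyme to form cartilage and cartilage to be replaced by bone.

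All 40 genes passed the minimum of 10 counts summed over the 6 libraries, at which 26596 genes were tested. The median log2 fold change (mutant minus control) of the 40 was -0.23, against 0.008 over all genes tested. Id3 fell in the mutants at an adjusted p under 0.1 in edgeR's quasi-likelihood test, and it was the sole member to do so (0.0526% of all genes tested were called lower by this limit). No member also passed the fold limit of 1 on the log2 scale (0.0639% of all genes did, either way). Without adjustment, 12 members were lower at p under 0.05 (4.7% of all genes tested) and 2 were higher (5.9%). In 12 members every mutant library lay below every control library (8.21% of all genes tested), and in 3 every mutant lay above (6.81%). DESeq2's Wald test called 8 members lower at an adjusted p under 0.1 (1.73% of the genes it gave an adjusted p) and 1 higher (2.61%). With the fold limit added, DESeq2 called Bmp8a and Smad9 lower (0.557% of all genes) and Id4 higher (1.62%). Id4 was not called when DESeq2 also had to pass on the authors' RSEM counts. The p-values measure the spread between these 6 libraries, and 3 against 3 cannot give an exact two-sided permutation p below 0.1 for a single gene.

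**Figure D1:**
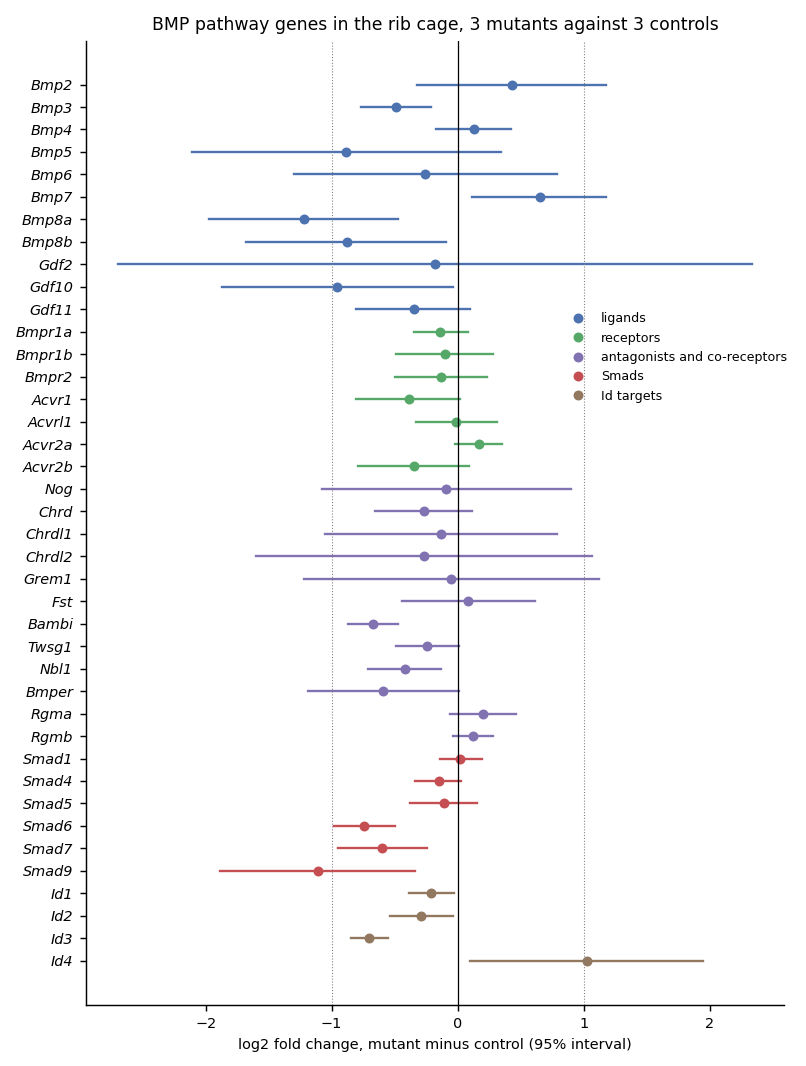
Log2 fold change (mutant minus control) of the 40 BMP pathway genes, ordered and coloured by role. Points are edgeR estimates from 3 mutants and 3 controls, lines are 95% intervals and dotted lines mark the fold limit. Id3, Bambi and Smad6 have short intervals wholly below 0. The estimates of Smad9 and Bmp8a lie below -1 and that of Id4 lies above 1, each with a wide interval.

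The promoter of Smad6 is shown as that of a gene lower in every mutant with little spread. Id3 and Bambi met the same description with smaller SEs (0.0629 and 0.0826 against 0.101) and are not shown. Smad6 was thus not picked by a fixed rule. The promoters of Smad9 and Bmp8a are shown because DESeq2 called them lower with the fold limit. RefSeq promoter windows on GRCm38.p6 were found for 27 of the 40 members. Each run below covers 250 bases before to 20 bases after the start site, 5′ to 3′ on the gene's own strand. Smad6 lies at chr9:64022040-64022309 (minus strand), Smad9 at chr3:54755332-54755601 (plus strand) and Bmp8a at chr4:123343233-123343502 (minus strand). Capitals mark GTCTAGAC, the palindrome of the Smad box, and GGCGCC, a GC-rich element that BMP-activated Smads are known to bind.
Smad6: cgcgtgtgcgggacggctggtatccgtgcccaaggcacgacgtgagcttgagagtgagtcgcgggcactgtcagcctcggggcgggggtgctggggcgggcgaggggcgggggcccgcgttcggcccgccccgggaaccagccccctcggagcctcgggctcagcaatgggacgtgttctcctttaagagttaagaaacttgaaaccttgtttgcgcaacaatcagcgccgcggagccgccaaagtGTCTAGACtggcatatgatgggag
Smad9: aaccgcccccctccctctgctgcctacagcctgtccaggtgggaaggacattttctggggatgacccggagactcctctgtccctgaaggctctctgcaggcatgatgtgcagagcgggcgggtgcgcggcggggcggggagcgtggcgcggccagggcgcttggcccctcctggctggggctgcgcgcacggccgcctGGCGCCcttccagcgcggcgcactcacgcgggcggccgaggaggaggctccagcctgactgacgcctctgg
Bmp8a: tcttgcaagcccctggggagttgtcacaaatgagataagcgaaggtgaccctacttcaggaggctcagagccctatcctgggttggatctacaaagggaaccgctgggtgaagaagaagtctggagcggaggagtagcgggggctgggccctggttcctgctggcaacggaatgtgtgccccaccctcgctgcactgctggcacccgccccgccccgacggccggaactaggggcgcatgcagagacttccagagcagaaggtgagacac
Both motifs read the same on either strand and share no overlap in these windows. In the full windows of 300 bases, GTCTAGAC was present in 70 of 32851 promoters (0.213%), and Smad6 was the single matched member to hold it, from 4 bases before its start site to 4 bases after. GGCGCC was present in 11.9% of all windows and in 11 of the 27 matched members, Smad9 with its first base 51 bases before the start site. The core of forkhead sites, TAAACA on either strand, was present in 13.4% of all windows and in 1 matched member, Gdf2. The 27 matched members had 33 windows, and a member was counted if any of its windows held the motif. Counts of members are thus not in the same unit as the shares of windows. These matches describe letters in a window and do not show that a factor binds there.

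The deleted genes followed the labels. Foxc1 was at 23.1, 36.9 and 24.2 CPM (counts scaled to library size with TMM factors) in controls and at 3.56, 9.6 and 3.51 CPM in mutants; values are given in the order E420, E434, E435 for controls and E423, E433, E440 for mutants throughout. Foxc2 was at 1.98, 4.83 and 3.22 CPM in the controls and at 0.649, 1.14 and 0.737 CPM in the mutants. Each library held 37853988 to 47794799 counts. The libraries of a group were unlike. Control E434 and mutant E433 were rich in cartilage RNA, with summed levels over 14 early chondrocyte markers of 27953 and 10380 CPM, against 2043 to 2147 CPM in the other controls and 720.4 to 744.0 CPM in the other mutants. Controls E420 and E435 were close to each other (mean chi-square per gene 9.35), as were mutants E423 and E440 (3.36), while the other pairs of libraries gave 72.4 to 403. Sampling noise alone gives 1 where counts are independent. It gives more here, because each end of a read pair was counted alone, so the close pairs lie nearer to sampling noise than these values show. All 9 osteoblast markers were lower in every mutant, with sums of 7985 to 8378 CPM against 11503 to 16625 CPM. Most of each sum is Col1a1 (7152 to 7786 CPM in the mutants). The median log2 ratio of the 9 markers to their control mean was -1.31, -1.91 and -1.19 in the mutants, and -0.09 to 0.09 in the controls. Sums over 4 hypertrophic chondrocyte markers were lower in every mutant too (194.4 to 223.9 CPM against 417.7 to 930.5 CPM). Of these 4 markers, 2 were lower in every mutant. Macrophage sums (121.7 to 138.6 CPM against 158.5 to 168.5 CPM) and erythroid sums (4290 to 8665 CPM against 10711 to 12948 CPM) were also lower in every mutant. All 5 adipocyte markers were higher in every mutant (191.4 to 578.5 CPM against 126.4 to 139.9 CPM). Summed keratinocyte markers were at 4489, 9.46 and 4922 CPM in controls and at 24182, 2711 and 23902 CPM in mutants. Skeletal muscle sums were 24991 and 24281 CPM in E423 and E440 and 10074 to 17779 CPM in the rest, and hepatocyte sums were 576.0 CPM in E433 and 28.9 to 45.3 CPM in the rest. No marker of these lists was at 0 in all libraries, and how far such RNA moved the values below was not tested beyond the fits named.

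Among the Smads, the inhibitory pair and Smad9 were lower in the mutants, while Smad1, Smad4 and Smad5 were within 0.15 log2 units of the controls. The osteoblast markers were lower in the same mutants (sums of 7985 to 8378 CPM against 11503 to 16625 CPM, median log2 ratios of -1.91 to -1.19). This holds too beside the Id genes, Bambi, Bmp3, Bmp8a and Gdf10 below. Hypertrophic chondrocyte, macrophage and erythroid sums were lower in the same mutants as well. The part of RNA from any of these cell types in these values was not tested. Smad6, which blocks receptor-activated Smads, was at 17.3, 18.3 and 16.7 CPM in controls and at 10.5, 9.86 and 11 CPM in mutants. The groups did not overlap, and the cartilage-rich library stood near the others in both. Its log2 fold change was -0.74 (SE 0.101, edgeR adjusted p = 0.145; DESeq2 adjusted p = 9.64e-07). Smad7, which inhibits both BMP and TGF-beta receptors, was at 17.1, 22.9 and 17.3 CPM in the controls and at 12.2, 13.7 and 11.9 CPM in the mutants. Its groups did not overlap either, with E434 the highest control and E433 the highest mutant. That gave a log2 fold change of -0.60 (SE 0.148, edgeR adjusted p = 0.347; DESeq2 adjusted p = 0.0273).

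Smad9 encodes the least abundant of the BMP-activated Smads here, at 1.53 ± 0.707 TPM (transcript levels scaled for length, the authors' RSEM values; SD, n = 3) in controls and 0.683 ± 0.179 TPM in mutants. It was at 4.56, 9.18 and 4.45 CPM in controls and at 2.45, 3.32 and 2.64 CPM in mutants. Control E434 was 2.04-fold above the mean of the other controls, and every mutant lay below every control. On the log2 scale the difference was -1.11 (SE 0.323, edgeR adjusted p = 0.389; DESeq2 adjusted p = 0.0382). Without control E434 the edgeR estimate was -0.68, and without both E434 and E433 -0.82, short of the fold limit. With the early chondrocyte level as a covariate in edgeR it was -0.77 (adjusted p = 0.165), and with the keratinocyte level -0.42 (adjusted p = 0.398).

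The other Smads gave narrow intervals around small differences. Smad1 was at 54.7, 55.6 and 51.8 CPM in controls and 56.8, 53.7 and 54 CPM in mutants (log2 fold change 0.02, 95% interval -0.14 to 0.19). Smad5 had a log2 fold change of -0.11 (95% interval -0.38 to 0.15). Smad4, the partner shared with TGF-beta signalling, had the highest level per length of the 6, at 38.5 ± 3.78 TPM in controls and 34.8 ± 6.52 TPM in mutants (SD, n = 3). It was at 90.2, 88 and 83.7 CPM in controls and 77.2, 84.4 and 74.2 CPM in mutants (log2 fold change -0.15, 95% interval -0.34 to 0.03).

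**Figure D2:**
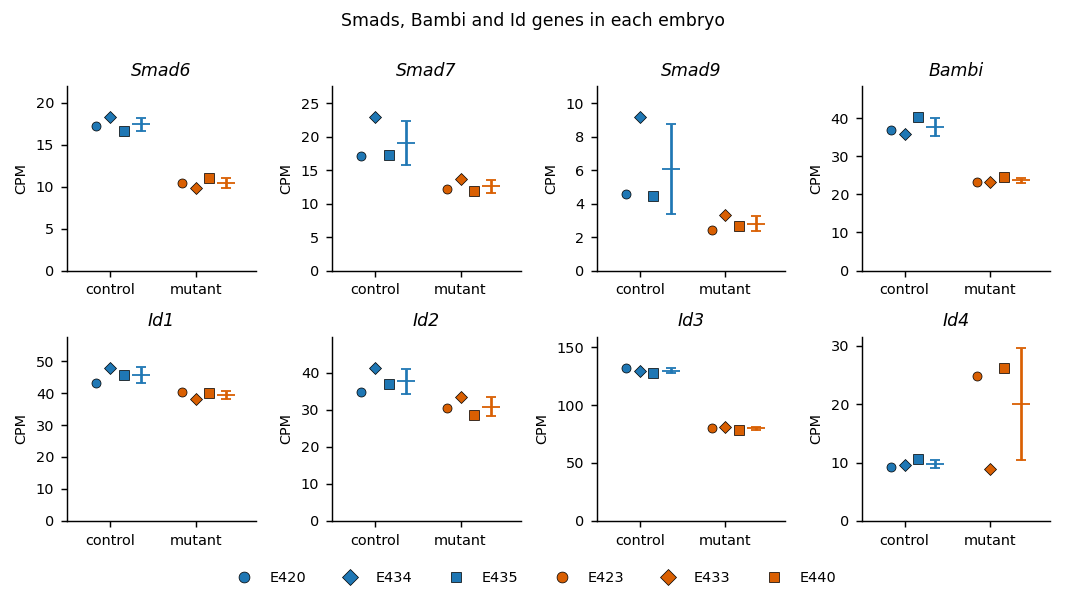
Levels in CPM (linear axis from 0) of Smad6, Smad7, Smad9, Bambi and the 4 Id genes in each embryo, controls in blue and mutants in orange, with the group mean and SD beside the points. Diamonds are the cartilage-rich libraries E434 and E433. In 7 of the 8 panels every mutant lies below every control, and in the Id4 panel mutant E433 lies with the controls.

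Id genes encode helix-loop-helix proteins that lack a DNA-binding region and hold back differentiation factors, and Id1, Id2 and Id3 are common readouts of BMP-activated Smads. Id3, at chr4:136143497-136145755 on GRCm38, was at 132.4, 129.1 and 127.9 CPM in controls and at 80.3, 81.1 and 78.7 CPM in mutants. The spread within a group was far smaller than the gap between them. Id3 fell by 0.70 on the log2 scale (SE 0.0629, 95% interval -0.85 to -0.55, edgeR adjusted p = 0.0775; DESeq2 adjusted p = 3.17e-15). The level in controls was 1.62-fold that in mutants. Id3 also had the highest level per length of the 40 members, at 159.7 ± 3.13 TPM in controls and 94.3 ± 8.53 TPM in mutants (SD, n = 3).

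The difference in Id1 and Id2 was smaller. Id1 was at 43.2, 48 and 45.7 CPM in controls and 40.2, 38 and 40 CPM in mutants (log2 fold change -0.21, SE 0.0756, edgeR adjusted p = 0.429). Id2 was at 34.7, 41.4 and 36.9 CPM in controls and 30.4, 33.5 and 28.5 CPM in mutants (log2 fold change -0.29, SE 0.104, edgeR adjusted p = 0.429). Neither gene's groups overlapped, and the gap between the lowest control and the highest mutant was small in both.

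Id4 went the other way in part of the libraries. It was at 9.26, 9.62 and 10.6 CPM in controls and at 24.8, 8.91 and 26.3 CPM in mutants. Mutants E423 and E440 were high, and mutant E433 was below every control. The log2 fold change was 1.03 (SE 0.386, edgeR adjusted p = 0.44; DESeq2 adjusted p = 0.0916). E423 and E440 were also the libraries with the highest keratinocyte, adipocyte and skeletal muscle sums and the lowest erythroid sums. With the keratinocyte level as a covariate the log2 fold change was 0.53 (adjusted p = 0.718). Without mutant E433 it was 1.39 (adjusted p = 0.00367), but the mutants left in that fit are the close pair E423 and E440. At an unadjusted p under 0.05 the same fit had 12.5% of all genes higher and 12.5% lower. With the close libraries summed, the log2 fold change of Id4 was 0.82 (edgeR unadjusted p = 0.196).

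Bambi, a receptor-like protein without a kinase domain that blocks BMP and TGF-beta receptors, was lower in the mutants by nearly as much as Id3. It was at 36.9, 35.9 and 40.3 CPM in controls and at 23.2, 23.3 and 24.5 CPM in mutants. The groups were far apart and each was tight. On the log2 scale the difference was -0.67 (SE 0.0826, edgeR adjusted p = 0.118; DESeq2 adjusted p = 1.25e-07). Under the other filters, scaling and counting pipeline, its adjusted p in edgeR ranged from 0.0882 to 0.145.

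The other antagonists and co-receptors showed less. Nbl1, a secreted antagonist of the DAN family, had the highest mean per length of the 12 in controls (64.4 ± 5.17 TPM in controls, 46.1 ± 11 TPM in mutants, SD, n = 3) and was at 81.4, 69.7 and 78.9 CPM in controls and 52.7, 66.4 and 52.5 CPM in mutants. In mutants the highest mean was that of Twsg1, a secreted modulator that binds BMP and chordin (59.5 ± 7.62 TPM in controls, 48.8 ± 11.2 TPM in mutants), at 158.3, 168.4 and 147.1 CPM in controls and 127.1, 150 and 124.1 CPM in mutants, and these neighbours did not differ beyond their spread. The Nbl1 groups did not overlap, with mutant E433 just under control E434. Its log2 fold change was -0.42 (SE 0.12, edgeR adjusted p = 0.381; DESeq2 adjusted p = 0.095). Without TMM scaling its groups overlapped. Rgmb, a co-receptor anchored in the membrane, was higher in every mutant (89.9, 85.9 and 90.7 CPM) than in every control (82.1, 78.9 and 84.8 CPM), giving 0.12 on the log2 scale (95% interval -0.04 to 0.28), and its groups too overlapped without TMM scaling. Chrdl2, a relative of chordin, was the lowest of the 12 at 0.640 ± 0.394 TPM in controls and 0.607 ± 0.425 TPM in mutants, and was at 0.611, 1.19 and 0.577 CPM in controls and 0.361, 1.21 and 0.412 CPM in mutants. For Nog, Chrd, Chrdl1, Chrdl2, Grem1, Fst, Twsg1, Bmper and Rgma, the edgeR adjusted p was between 0.475 and 0.984, with log2 fold changes from -0.59 for Bmper to 0.20 for Rgma.

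Of the 11 ligands, 4 were lower at an unadjusted p under 0.05 in edgeR (4.7% of all genes tested) and 1 was higher (5.9%). Bmp8a, a ligand best known for its part in germ cell formation, was at 4.96, 4.61 and 5.01 CPM in controls and at 2.31, 1.16 and 2.77 CPM in mutants. The controls lay together, and the lowest mutant was the cartilage-rich E433. The log2 fold change was -1.22, the largest of the 40 in size (SE 0.312, edgeR adjusted p = 0.358; DESeq2 adjusted p = 0.00941). With the early chondrocyte level as a covariate it was -1.49 (adjusted p = 0.0731), and without E433 it was -0.93. Its neighbour Bmp8b, listed at only 9 to 21 counts per library, was at 0.534, 0.331 and 0.412 CPM in controls and 0.216, 0.209 and 0.26 CPM in mutants, a log2 fold change of -0.88 (SE 0.331, edgeR adjusted p = 0.44). The pair are close copies, and 9.74% of the 42-base stretches of Bmp8a exons also occur in Bmp8b, so their split is uncertain to that extent.

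Bmp3, a ligand that opposes BMP signalling in bone, was at 24.4, 31.1 and 26.8 CPM in controls and 18.7, 20.9 and 19.2 CPM in mutants. The groups did not overlap, and the log2 fold change was -0.49 (SE 0.117, edgeR adjusted p = 0.343; DESeq2 adjusted p = 0.0345). Gdf10, also known as Bmp3b, was at 53.7, 79.2 and 53.7 CPM in controls and at 21.1, 52.5 and 22.6 CPM in mutants. The cartilage-rich library was the highest of its group in each case, and mutant E433 stood just under the other controls. The log2 fold change was -0.96 (SE 0.381, edgeR adjusted p = 0.459; DESeq2 adjusted p = 0.127). Without E433, which leaves the close pair E423 and E440 as the mutants, it was -1.5 (adjusted p = 0.0216). With the close libraries summed it was -0.84 (edgeR unadjusted p = 0.143), and with the early chondrocyte level as a covariate -0.72 (adjusted p = 0.11). With the keratinocyte level as a covariate it was -0.37 (adjusted p = 0.621).

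Bmp7, a ligand with roles in the kidney, eye and skeleton, was the 1 ligand of the 11 with higher levels in every mutant. It was at 28.8, 20.1 and 28.2 CPM in controls and at 47.5, 29.0 and 44.3 CPM in mutants. The groups were apart, but E433 was within 1 CPM of control E420, and in the RSEM counts the groups overlapped. Bmp7 thus had a log2 fold change of 0.65 (SE 0.224, edgeR adjusted p = 0.425; DESeq2 adjusted p = 0.104). It was 0.42 with the early chondrocyte level as a covariate (adjusted p = 0.0763) and 0.20 with the keratinocyte level (adjusted p = 0.616).

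The remaining ligands did not pass p under 0.05. Bmp2, a strong inducer of bone, was at 14.6, 19.4 and 14.3 CPM in controls and 25.6, 12.1 and 27.3 CPM in mutants, with E433 low and the others high as for Id4 (log2 fold change 0.43, SE 0.312, edgeR adjusted p = 0.66). Bmp5, which shapes cartilage of the outer ear and ribs, was at 19.2, 34.3 and 16.5 CPM in controls and 7.29, 22.6 and 7.93 CPM in mutants (log2 fold change -0.89, SE 0.509, edgeR adjusted p = 0.574), and 46.1% of its 42-base stretches also lie in an overlapping gene, Gm26903. Bmp4, the ligand with the highest level per length (17.9 ± 2.81 TPM in controls, 19.7 ± 1.83 TPM in mutants, SD, n = 3), was at 15.8, 18 and 15.6 CPM in controls and 19.9, 15.8 and 18.2 CPM in mutants, a log2 fold change of 0.13 (95% interval -0.17 to 0.42). Bmp6 and Gdf11 had log2 fold changes of -0.26 and -0.35. Gdf2, a ligand made mainly in liver that acts on endothelium, was the lowest, with 4, 8 and 2 counts in controls and 4, 8 and 0 counts in mutants, too few to show a difference.

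**Figure D3:**
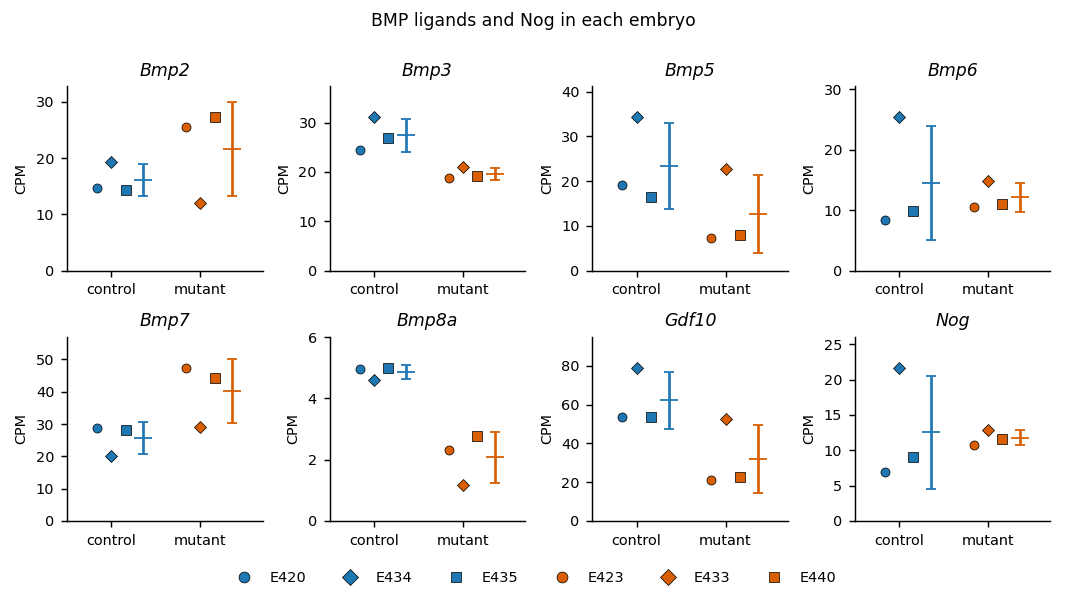
Levels in CPM (linear axis from 0) of 7 BMP ligands and of Nog in each embryo, controls in blue and mutants in orange, with the group mean and SD beside the points. Diamonds are the cartilage-rich libraries. The diamonds stand above both other points of their group for Bmp3, Bmp5, Bmp6, Gdf10 and Nog and below them for Bmp7 and Bmp8a. The Bmp8a controls lie together above all mutants.

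None of the 7 receptors passed p under 0.05 (adjusted p = 0.487 to 0.993), and their log2 fold changes ran from -0.39 for Acvr1 to 0.17 for Acvr2a, with a median of -0.13. Bmpr1a, a type I receptor of bone and cartilage, had the highest level per length, 47.0 ± 5.18 TPM in controls and 42.4 ± 6.84 TPM in mutants (SD, n = 3), and was at 187.9, 203.3 and 178.4 CPM in controls and 165.6, 187.2 and 165.4 CPM in mutants. Its log2 fold change was -0.14 (95% interval -0.35 to 0.08). Bmpr1b, a second type I receptor, had the lowest mean per length in controls (5.6 ± 1.1 TPM; 5.13 ± 1.09 TPM in mutants) and was at 19.7, 23.0 and 16.2 CPM in controls and 18.2, 20.4 and 16.2 CPM in mutants (log2 fold change -0.10, 95% interval -0.49 to 0.28). In the mutants the lowest mean was that of Acvr2b, a type II receptor (5.90 ± 0.804 TPM in controls, 4.69 ± 0.883 TPM in mutants), and these neighbours did not differ beyond their spread. Acvr2b was at 11.5, 11.7 and 9.77 CPM in controls and 7.36, 10.8 and 7.69 CPM in mutants (log2 fold change -0.35, 95% interval -0.79 to 0.09). Acvr2a, a type II receptor, was higher in every mutant (46.1, 42.2 and 47.0 CPM) than in every control (39.2, 41.9 and 39.4 CPM), and the nearest points almost touched (95% interval of the log2 fold change -0.02 to 0.35).

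**Figure D4:**
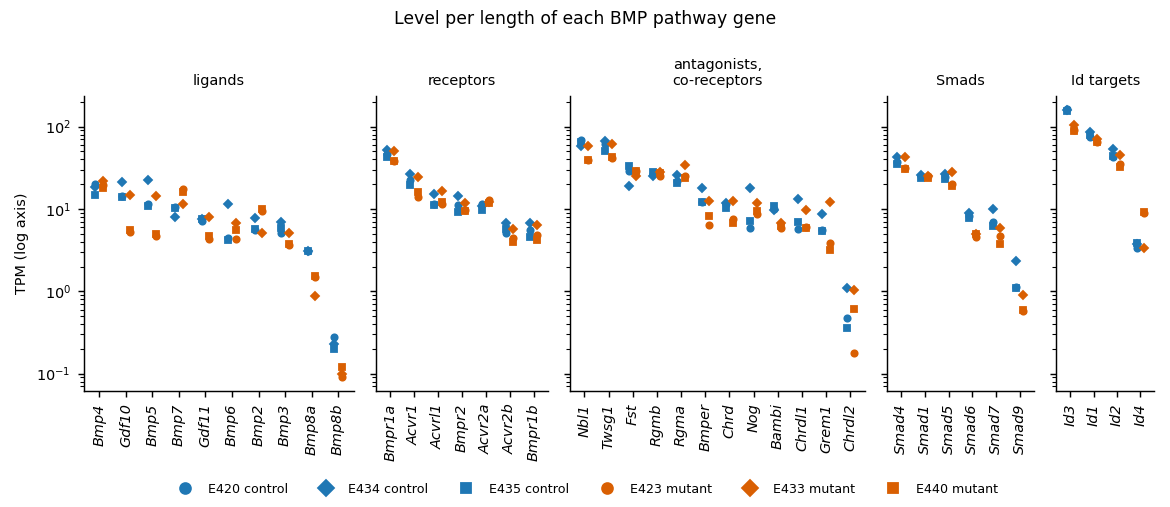
Level per length in TPM (log axis) of 39 members in each embryo, grouped by role and ordered by the control mean, controls in blue and mutants in orange. Gdf2, listed at 0 TPM in mutant E440, is left out. Id3 stands at the top of all members and Bmp8b at the bottom.

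Several antagonists and ligands stood apart in the cartilage-rich libraries within each group. These libraries also differed from the others in keratinocyte, muscle and hepatocyte RNA, and no part of the pattern was traced to a tissue. Over the 39 members with more than 3 counts in every library, 24 (61.5%) were above the mean of the other 2 controls in E434 and also above the mean of the other 2 mutants in E433, and 29.7% of the 20426 genes with such counts were. Grem1 was at 16.4, 26.1 and 16.3 CPM in controls and 12.2, 34.6 and 10.1 CPM in mutants, so that the cartilage-rich library was 1.6-fold and 3.1-fold above the others of its group. Nog, which cartilage makes to restrain BMP ligands, was at 6.92, 21.7 and 9.05 CPM in controls and 10.8, 12.9 and 11.6 CPM in mutants, 2.71-fold up in E434 and 1.15-fold in E433. Bmp6 had 8.30, 25.4 and 9.83 CPM in controls and 10.5, 14.9 and 11 CPM in mutants. The 5 members at least 1.5-fold higher in both cartilage-rich libraries were Bmp5, Chrdl1, Chrdl2, Grem1 and Bmper (2.51% of all such genes were).

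Setting E433 against E434 and the other mutants against the other controls, 22 of the 39 members were lower in both comparisons (28.4% of all such genes) and 5 were higher in both (24.8%). The 22 included Smad6, Smad7, Smad9, Bambi, Id1, Id2, Id3, Bmp3, Bmp8a and Gdf10. In each gene named here every mutant lay below every control, which fixes both signs in advance. The members whose groups did not overlap, 12 lower and 3 higher, had to be counted here, so their place adds no support. For Id3 the log2 ratios were -0.67 and -0.71, and for Bambi -0.63 and -0.69. Nog, Bmp2, Bmp6 and Id4 were among 12 members with opposite signs (30.8% of the 39, against 46.8% of all such genes). The ratios were -0.75 and 0.49 for Nog and -0.68 and 0.87 for Bmp2. The libraries set against each other were not equal in cartilage RNA, since the chondrocyte sum was lower in the mutant each time.

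**Figure D5:**
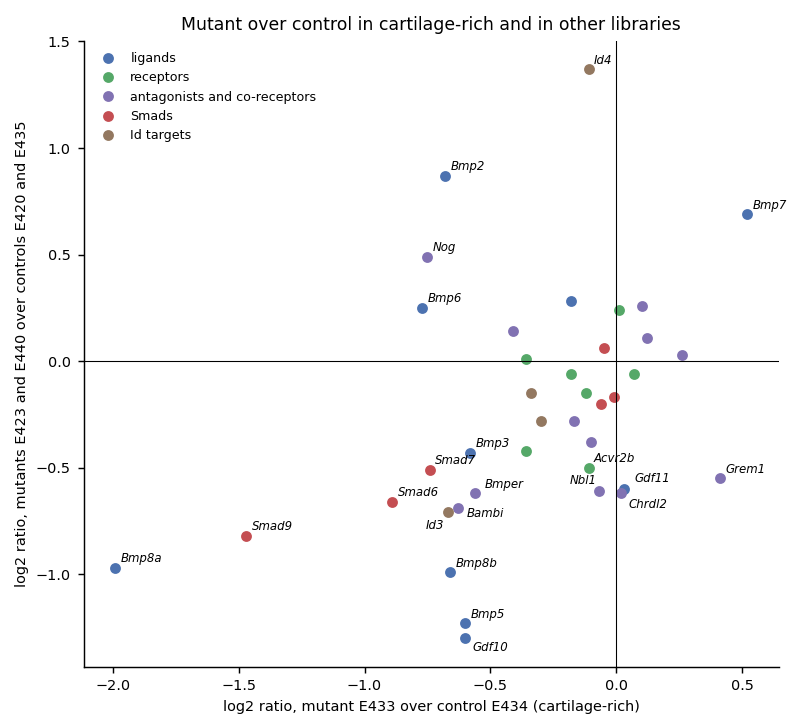
Log2 ratio of mutant E433 over control E434, the cartilage-rich libraries, against the log2 ratio of the mean of mutants E423 and E440 over the mean of controls E420 and E435, for 39 members coloured by role. Smad6, Smad7, Smad9, Bambi, Id3, Bmp8a and Gdf10 lie in the lower left, below 0 on both axes. They must lie there, since every mutant was below every control. Nog, Bmp2, Bmp6 and Id4 are below 0 on one axis and above it on the other.

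A further list of 50 BMP pathway genes held 47 that could be tested. At an unadjusted p under 0.05 in edgeR, 7 were lower (4.7% of all genes tested) and 2 higher (5.9%). None passed an adjusted p under 0.1 in edgeR. Their median log2 fold change was -0.09. Sostdc1, an antagonist of BMP and Wnt signals, was at 12.6, 5.89 and 12.4 CPM in controls and 26.3, 11.2 and 29.3 CPM in mutants (log2 fold change 1.12, SE 0.433, edgeR adjusted p = 0.451; DESeq2 adjusted p = 0.0914), with mutant E433 below controls E420 and E435. Sost, a Wnt inhibitor of osteocytes in the same protein family, was at 3.97, 7.04 and 5.09 CPM in controls and 2.24, 1.39 and 2.82 CPM in mutants (log2 fold change -1.32, SE 0.323, edgeR adjusted p = 0.346; DESeq2 adjusted p = 0.00619), beside osteoblast markers that were lower in every mutant. Gdf7 was at 4, 20 and 28 counts in controls and 2, 2 and 4 in mutants, and Gdf3 at 6, 2 and 2 counts in controls and 0 in each mutant. A count of 0 allows up to 3 counts per library (0.065 to 0.0722 CPM) if counts are independent. It allows more here, because each end of a read pair was counted alone. The other lower genes at p under 0.05 were Smurf2, Skil, Dlx5 and Hey1, with log2 fold changes of -0.21, -0.49, -0.66 and -0.60. Of these, Skil, a co-repressor of Smads, and Hey1, a target shared by BMP and Notch signals, had DESeq2 adjusted p-values of 3.76e-05 and 4.58e-05. Atoh8, Msx1 and Msx2, further transcription factors induced by BMP signals, had log2 fold changes of -0.09, -0.34 and 0.48 and passed no limit.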

How the data were processed

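Rib cages of 3 control and 3 mutant embryos at 16.5 dpc gave mRNA libraries (a stranded kit, paired reads of 42 bases). The authors aligned reads with HISAT2 2.1.0 and deposited counts per gene from featureCounts 1.6.0, with GENCODE M25 annotation of GRCm38; the command used no strand and counted each end alone. Separately they aligned with STAR 2.7.6 and deposited estimated counts and TPM per gene from RSEM 1.2.31. The authors' comparison tables, which hold fold changes, p-values and 12 columns of per-sample values, were not used.

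Counts were tested with edgeR 4.0.16 (R 4.3.3; quasi-likelihood, TMM, at least 10 counts in all, Benjamini-Hochberg adjustment over 26596 genes), after a check on simulated data. A gene was called at an adjusted p under 0.1 with a change of 1 or more on the log2 scale. SE is the log2 fold change over the root of the test statistic. DESeq2 1.42.0, other filters and scalings, rounded expected counts, omitted libraries and 2 covariates (mean log2 CPM of early chondrocyte or of keratinocyte markers) were alternatives; the keratinocyte covariate and the summing of close libraries were added after the data were seen. The mean of each covariate differs between the groups. Symbols came from GENCODE M21 and matched 55141 of 55487 IDs; promoters came from RefSeq. Values in every embryo are given for members with p under 0.05, a DESeq2 call, groups apart or an extreme level per length in their role, and for a few others that were chosen after their values were seen (Smad1, Bmp2, Bmp5, Bmp6, Nog and Grem1); of the further list, genes with p under 0.05 and a change of 1 or more (log2) are named, and Smurf2, Skil, Dlx5, Hey1, Atoh8, Msx1 and Msx2 were chosen after their values were seen. A result of that list that the rule would name is not reported here. The members and lists were chosen with earlier results of these data known. Of 40 members, those with no mention of a level passed no limit.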

Additional observations from a re-analysis of the deposited data

How the results depend on the processing

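Of the 240 log2 fold changes of 16 named members recomputed under alternatives, 0 reversed direction and 0 lost a call, as edgeR had called none. These 16 were picked in the same data, by an unadjusted p under 0.05, groups apart or a DESeq2 adjusted p under 0.1. Such a choice favours stable signs, so the count of reversals does not test how robust they are. Members called higher were 1 under DESeq2, without mutant E433 and without both cartilage-rich libraries (1.62%, 2.84% and 5.66% of all genes). Members called lower were 2 under each of those (0.557%, 1.37% and 2.59% of all genes). They were Bmp8a and Smad9 under DESeq2, but Bmp5 and Gdf10 without E433 and without both cartilage-rich libraries. DESeq2 in both pipelines also gave 2 called lower, but 0 called higher, so Id4 was not called there. No share over all genes was at hand for it. With the early chondrocyte covariate 1 was called lower (Bmp8a, 0.267% of all genes), and with no fold limit 1 (Id3, 0.0526%). Leaving out 1 library at a time gave 0 to 1 called higher (0% to 2.84% of all genes) and 0 to 2 called lower (0% to 1.37%).

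Members higher at an unadjusted p under 0.05 numbered 0 to 4 when 1 library was left out (0 without E423 or E440, 4 without E433), against 2 with all 6. They numbered 9 without both cartilage-rich libraries, 4 with the keratinocyte covariate (5.8% of all genes) and 0 with the close libraries summed. Members lower numbered 8 to 21 when 1 library was left out (21 without E433), 22 without both cartilage-rich libraries and 7 with the close libraries summed, against 12. Of all genes, 12.5% were lower and 12.5% higher at this limit without E433, and 2.49% to 4.26% lower and 3.09% to 6.47% higher without another library. Without both cartilage-rich libraries, 20.3% of all genes were higher and 19.5% lower at that limit; with the close libraries summed, 1.54% and 1.35% were. In that sum the 7 members were lower with adjusted p-values of 1 in edgeR. Without E420, E435, E423 or E440 in turn, no gene had an adjusted p under 0.1 in edgeR, and the adjusted p of Id3 reached 0.471. The median log2 fold change of the members was -0.41 to -0.13 when 1 library was left out, -0.11 with the early chondrocyte covariate and -0.04 with the keratinocyte covariate; for receptors it was 0.03 without E434 and 0.15 with the keratinocyte covariate, and for ligands -0.04 with the latter. The cause of these moves was not tested. No paired analysis was possible because the embryo numbers pair no control with a mutant and the litters are not given. Intervals at 0 counts cover counting error only and take each count as independent. Depth limits Gdf2, Gdf3, Gdf7, Bmp8b and Chrdl2.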
